A study of Cicer arietinum with 18 samples.

Results

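A spotted chickpea cDNA array held 715 experimental features, of which only those with CA or U identifiers were searched. Of these, 20 stood past a set threshold above the untreated control 27 h after both salicylic acid (SA) and aminocyclopropane carboxylic acid (ACC). They were chosen by their deposited log2 ratios alone: the identifier starts with CA or U, at least 2 values are present under each compound at 27 h, and the mean over genotypes is at least 0.4 under SA and under ACC. Of the 559 CA or U features, 469 had enough values for this rule. The members hold 3 CA and 17 U identifiers, against 104 CA and 365 U features among the 469. Their 27 h values under SA and ACC are therefore a description without a test. What the rule did not use are the 12 samples taken 3 h after SA, ACC or methyl jasmonate (MeJA) and 27 h after MeJA.

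The plants were Cicer arietinum seedlings aged 14 days, and RNA came from pooled stem and leaf of the shoot. Each of the 18 samples combined 1 genotype (FLIP94-508C, ICC3996 or Lasseter), 1 compound and 1 harvest time, 3 h or 27 h after treatment, and was hybridised with untreated control RNA of the same genotype. Lasseter is known to be susceptible to ascochyta blight, ICC3996 to be resistant and FLIP94-508C to be moderately so. Every value is the authors' mean over 3 biological replications, so a sample has no error of its own, and a compound at 1 time has its 3 genotypes as replicates (n = 3). SD below is over genotypes, and lists of 3 values run in the order FLIP94-508C, ICC3996 and Lasseter. A log2 ratio of 1 is a 2-fold difference. Ratios are read as treated over control. The order of the channels in the labels makes this direction likely, and nothing states it for the deposited values. The labels do not say whether the compounds shared untreated plants. Should they have done so at 27 h, the MeJA values at that time would share control RNA with the values that chose the members.

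SA is a plant hormone that accumulates in infected tissue and drives systemic acquired resistance. ACC is the direct precursor of ethylene, a gaseous hormone of ripening, senescence and defence, which plants form from it by ACC oxidase. MeJA is converted to jasmonic acid, a hormone of the wound response and of defence against chewing insects and necrotrophs. In Arabidopsis, ethylene and jasmonate signals often act together, and SA and jasmonate often oppose each other. The files used here pair no identifier with a gene, and 0 of the 715 matched the chickpea reference gene table, so no role can be given to a member, the labelled tissue could not be checked against marker genes, and no sequence is shown. In whole shoots, a larger share of cells of a type and more RNA per cell cannot be told apart.

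Over the array, between 534 and 639 features had a value in a sample. Sample medians ran from -0.32 to 0.00, and the SD over features from 0.28 to 1.22, so samples differed widely in spread. Of the 20 members, 16 had a value in all 18 samples.

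**Figure D1:**
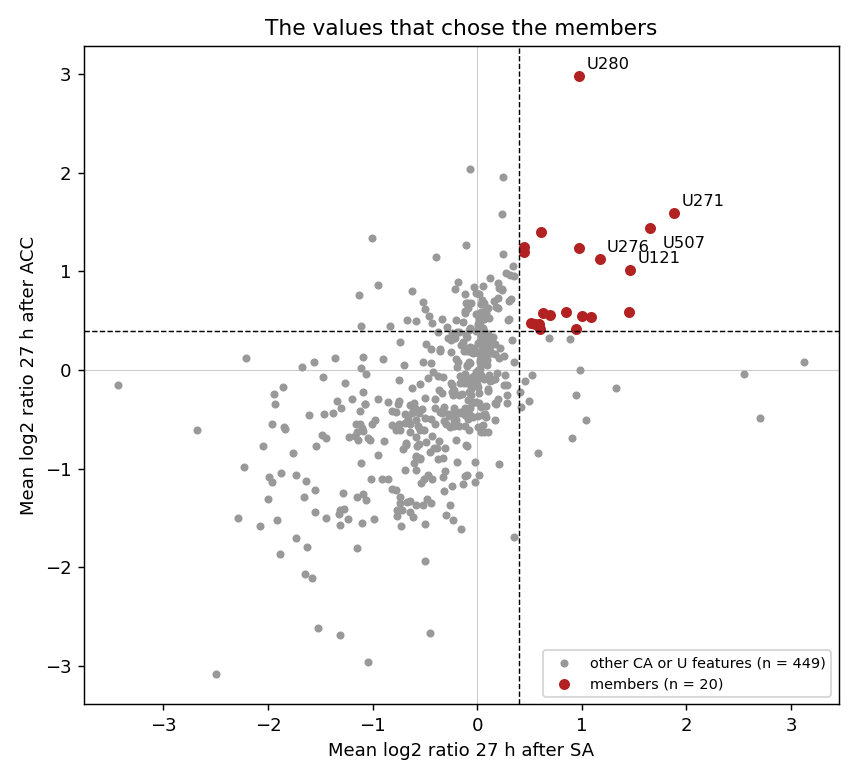
Mean log2 ratio over genotypes 27 h after SA (horizontal axis) against that 27 h after ACC (vertical axis) for the 469 CA or U features with enough values. Dashed lines mark the threshold of 0.4, and the 20 members (red) fill the upper right corner, with U280 the highest of them under ACC and U271 under SA.

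At 27 h the members covered a broad range. Their means ran from 0.45 to 1.88 under SA, with a median of 0.90, and from 0.41 to 2.98 under ACC, with a median of 0.59. With 1 genotype left out, the median was 0.67 to 0.87 under ACC and 0.74 to 1.03 under SA, so these medians do not rank the compounds. Over all features with at least 2 values the medians were -0.20 and -0.29. SA gave the higher mean in 15 members and ACC in 5, which were U008, U188, U279, U280 and U441, named here after their values were seen. Of the members, 7 reached a mean of 2-fold under SA, 9 under ACC and 4 under both. All measured values were above control in 13 members, and 8 of 119 values lay below it.

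The 4 members at least 2-fold above control under both compounds were U121, U271, U276 and U507. U271 was at 1.56 in FLIP94-508C, at 0.75 in ICC3996 and at 3.34 in Lasseter 27 h after SA, and at 0.91, 2.33 and 1.53 after ACC. Its highest value thus came from Lasseter under SA and from ICC3996 under ACC. U121 was at 1.66, 1.02 and 1.71 in the same order after SA and at 0.94, 1.59 and 0.50 after ACC. U276 was at 1.74, 0.72 and 1.05 after SA and at 1.31, 1.67 and 0.39 after ACC. For both features ICC3996 gave the lowest value under SA and the highest under ACC. U507 was at 1.86, 2.00 and 1.10 after SA, and at 1.43 in FLIP94-508C and 1.44 in Lasseter after ACC, with the ICC3996 value omitted.

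U280 had the highest ACC mean of the members, 2.98 ± 0.88 (SD, n = 3), or 7.90-fold. After ACC it was at 2.84, 3.93 and 2.18 over the genotypes, and after SA at 0.44, 0.81 and 1.67. Among these values, which chose the members, the ranges of both compounds did not overlap for U280, nor for U188 and U441. No share over all features was counted, so this is a description only. For U280 the genotypes stood in different orders.

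Other members leaned towards 1 compound, and those given here were chosen after their values were seen. U286 was at 2.52, 0.90 and 0.95 after SA and at 0.93, 0.78 and 0.06 after ACC, higher under SA in every genotype. U008, U188 and U441 leaned the other way in every genotype. U008 was at 1.10, 0.35 and 0.39 after SA and at 1.53, 1.81 and 0.85 after ACC. U188 was at 0.59, 0.24 and 0.50 after SA and at 1.12, 1.98 and 0.65 after ACC. In ICC3996 these features stood at least 2-fold above control after ACC and less than 2-fold above it after SA, as did U441, at 0.09 after SA and 1.66 after ACC.

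In CA0880, U224 and U315 the Lasseter value after ACC was close to control, at -0.04, -0.13 and -0.11, and the other 2 genotypes carried the mean. CA0880 was at 0.88 in FLIP94-508C and 0.58 in ICC3996, U224 at 0.65 and 0.71, and U315 at 0.62 and 0.89. U166 and U017 were below control in FLIP94-508C after ACC (-0.40 and -0.14) and above it in Lasseter (1.21 and 1.16).

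Near the threshold the members merge with the rest. Just inside it, the smaller of both means was 0.45 for U188 (0.45 under SA, 1.25 under ACC), 0.41 for U017 (0.95 and 0.41) and 0.41 for U224 (0.60 and 0.41). Just outside, it was 0.35 for U415 (0.35 and 0.95), 0.34 for U054 (0.34 and 1.05) and 0.33 for U021 (0.68 and 0.33).

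**Figure D2:**
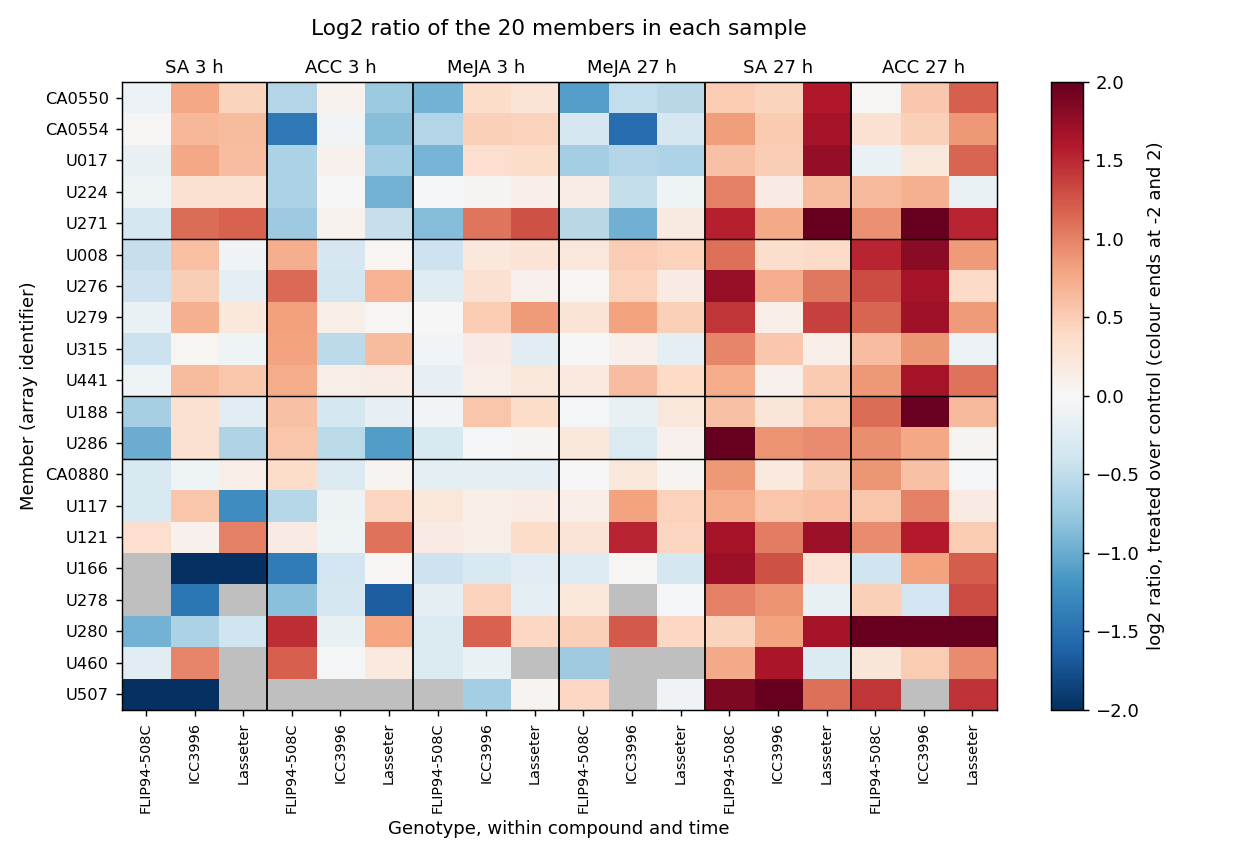
Log2 ratio of each member (rows) in each sample (columns, 3 genotypes within each compound and time). Red is above control, blue below, grey an omitted value, and the colour ends at -2 and 2. Columns at 27 h after SA and ACC, which chose the members, are mostly red, and the other 12 columns hold both colours, with U166 and U507 deepest below control 3 h after SA.

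Genotypes did not share 1 order at 27 h. After SA, FLIP94-508C was the highest genotype in 12 of 20 members and ICC3996 the lowest in 14. After ACC, ICC3996 was the highest in 11 of the 19 members with 3 values and Lasseter the lowest in 11. The shares of all features with these orders were not counted. Over all features the medians in FLIP94-508C, ICC3996 and Lasseter were -0.26, -0.08 and -0.21 after SA. After ACC they were -0.26, -0.30 and -0.19. The members' median after SA was 0.99, 0.54 and 0.80 in FLIP94-508C, ICC3996 and Lasseter. After ACC it was 0.87, 0.89 and 0.86, so only these medians lay close together. Among members with 3 values after ACC, the range over genotypes ran from 0.56 for CA0554 to 1.75 for U280.

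Some members were carried by particular genotypes. The widest range over genotypes after SA was that of U271 (2.59), followed by U460 (1.91), which was at 0.75 in FLIP94-508C, at 1.63 in ICC3996 and at -0.28 in Lasseter. After ACC the widest were U280 (1.75) and U278 (1.69), the latter at 0.47, -0.39 and 1.30. U117, chosen after its values were seen, had the narrowest range after SA (0.20), at 0.74, 0.55 and 0.60.

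The 3 h samples addressed whether the members were above control early. The members' means had a median of 0.03 under SA, 0.03 under ACC and 0.04 under MeJA, beside -0.15, -0.20 and -0.05 over all features. These medians rest on single genotypes: without FLIP94-508C they were 0.27 under SA and 0.20 under MeJA, and without ICC3996 that under ACC was 0.21. Without FLIP94-508C the ACC median was -0.14. Above control in all 3 genotypes stood 2 of 16 members after SA (16.8% of all features with 3 values), 2 of 19 after ACC (16.3%) and 3 of 18 after MeJA (15.8%), shares near or below those of the array. These were CA0554 and U121 for SA, U279 and U441 for ACC, and U117, U121 and U279 for MeJA, named after their values were seen.

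Moderated linear models in limma tested each feature over the 12 samples that the rule did not use, with Benjamini-Hochberg adjustment over 527 features, of which 17 were members. U278, U460 and U507 had too few values to be tested.

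U166 was far below control 3 h after SA. It was at -3.20 in ICC3996 and -4.28 in Lasseter, with the FLIP94-508C value omitted, a measured mean of -3.74 ± 0.76 (SD, n = 2). Both values lie below every other measured value of U166. The fitted response, which allows for the missing genotype, was -3.90 (SE 0.34, limma adjusted p = 0.00112). Every fit that left out samples and still tested U166 kept both values, so whether the call stands without either was not tested. U166 was the 1 member called among 17, where 12 of 527 features (2.28%) were called, 1 higher and 11 lower. At 27 h after SA, among the values that chose it, U166 was at 1.71, 1.28 and 0.29 over the genotypes. It was therefore on opposite sides of control at the 2 times in ICC3996 and in Lasseter.

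U507 showed the same order of values but could not be tested. It was at -2.91 in FLIP94-508C and -2.87 in ICC3996 3 h after SA, with Lasseter omitted, and all 3 values after ACC were omitted. After MeJA, U507 lay between -0.68 and 0.41 in the 4 samples with a value. U278 had a value in ICC3996 only 3 h after SA, at -1.45. After ACC, U278 was at -0.83 in FLIP94-508C, at -0.34 in ICC3996 and at -1.65 in Lasseter, the lowest mean of the members there (-0.94 ± 0.66, SD, n = 3).

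The highest means 3 h after SA were those of U271 (0.65 ± 0.87, SD, n = 3; limma adjusted p = 0.328) and U121 (0.47 ± 0.47, SD, n = 3), which did not pass. U271 was at -0.35 in FLIP94-508C, at 1.12 in ICC3996 and at 1.18 in Lasseter, so its mean hides a genotype on the other side of control. U280 was below control in all 3 genotypes, at -0.95, -0.63 and -0.40, and did not pass (-0.66, SE 0.36, limma adjusted p = 0.358).

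ACC at 3 h gave no calls among the members or among the 527 features (0.0%) in limma, where 89 features, 2 of them members, had an unadjusted p below 0.05. The methods' t-test gave none after adjustment, but on at most 3 values per feature it called no feature in any group. The lowest means among tested members were those of CA0554 (-0.78, SE 0.32, limma adjusted p = 0.242) and U166 (-0.58, SE 0.26, limma adjusted p = 0.311). Highest were U280 (0.71, SE 0.36, limma adjusted p = 0.346) and U276 (0.50, SE 0.30, limma adjusted p = 0.383). U280 was at 1.48 in FLIP94-508C, at -0.15 in ICC3996 and at 0.79 in Lasseter, and U276 at 1.14, -0.36 and 0.70. The 19 members of the ICC3996 sample lay between -0.54 and 0.11, within a narrower range than in FLIP94-508C (-1.43 to 1.48) and Lasseter (-1.65 to 1.08), and over all features the SD in ICC3996 was 0.52 against 1.19 and 0.88. Without the ICC3996 sample 62 of 502 features (12.4%) were called and 4 of 17 members, U276 (1.09), U280 (1.35) and U315 (0.81) higher and U224 (-0.83) lower, with limma adjusted p from 0.0145 to 0.0494.

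SA and ACC were then compared at 3 h. U166 was lower under SA by -3.31 (SE 0.43, limma adjusted p = 0.0188), 1 of 2 features called among 527 (0.38%) and the 1 member. U166 was at -1.40, -0.39 and 0.03 in FLIP94-508C, ICC3996 and Lasseter 3 h after ACC, all above its SA values. This call did not hold without the Lasseter sample 3 h after ACC (adjusted p = 0.0827), the Lasseter sample 3 h after MeJA (adjusted p = 0.0601) or any 1 sample taken 27 h after MeJA (adjusted p from 0.0512 to 0.0535), all in limma. U280 was lower under SA by -1.37 (SE 0.50, limma adjusted p = 0.421) and passed in 1 of 15 leave-out fits, that without the ICC3996 sample after ACC (-2.01, limma adjusted p = 0.039). Without the FLIP94-508C sample after ACC the difference was -0.78 (limma adjusted p = 0.427). CA0554 was higher under SA by 1.22 (SE 0.45, limma adjusted p = 0.421), at 0.02, 0.66 and 0.63 after SA and at -1.43, -0.06 and -0.85 after ACC. Its groups did not overlap, although the difference did not pass. They were parted only by 0.02 in FLIP94-508C after SA and -0.06 in ICC3996 after ACC, both close to control. Those of U280 did not overlap at 3 h either (-0.95 to -0.40 after SA, -0.15 to 1.48 after ACC). No share of features without overlap was counted over the array.

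After MeJA no member or feature was called in limma at 3 h (0.0% of 527) or at 27 h (0.0%). The unadjusted limma p was below 0.05 in 12 features and 0 members at 3 h, and in 20 and 4 at 27 h. The methods' t-test, with each group's own spread but at most 3 values, gave none after adjustment. Its unadjusted p was below 0.05 in 73 features (3 members) at 3 h and 48 (2 members) at 27 h. The limma fit set 1 spread per feature for all 4 groups. Over all features, sample SD was 0.33 to 0.37 3 h after MeJA, against 0.52 to 1.22 3 h after SA or ACC. The lack of calls therefore does not show that MeJA had no effect. The members' means ran from -0.32 to 0.49 at 3 h and from -0.74 to 0.74 at 27 h, with a median of 0.09 at 27 h beside -0.06 over all features.

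At 27 h after MeJA, 7 of 17 members were above control in all 3 genotypes (21.2% of all features with 3 values): U008, U117, U121, U276, U279, U280 and U441, listed after their values were seen. The highest means were 0.74 ± 0.69 for U121 and 0.70 ± 0.45 for U280 (SD, n = 3). U121 was at 0.26 in FLIP94-508C, at 1.53 in ICC3996 and at 0.43 in Lasseter, so that its mean rests mainly on ICC3996. Over all features the SD in that sample was 1.04, against 0.31 in FLIP94-508C and 0.28 in Lasseter, and the part of this spread in the result was not tested. U280 was at 0.47, 1.22 and 0.41. Another 3 of 17 members were below control in every genotype (25.8% of all features with 3 values): CA0550 at -1.10, -0.49 and -0.55, CA0554 at -0.34, -1.53 and -0.33, and U017 at -0.69, -0.59 and -0.62. Their limma adjusted p were 0.532, 0.989 and 0.868. The change from 3 h to 27 h under MeJA, judged by the spread that all groups share, had no calls in limma (0.0% of 527). Its unadjusted limma p was below 0.05 in 0 features.

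At 3 h after MeJA the lowest means were -0.32 ± 0.09 for U166 (SD, n = 3) and -0.32 ± 0.52 for U507 (SD, n = 2), and the highest were 0.49 ± 1.19 for U271 and 0.46 ± 0.42 for U279 (SD, n = 3). U166 was at -0.41, -0.31 and -0.23, even over genotypes, and U271 at -0.87, 1.07 and 1.28, with FLIP94-508C on the other side of control. U279 was at 0.00 in FLIP94-508C, at 0.51 in ICC3996 and at 0.85 in Lasseter.

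FLIP94-508C was the lowest genotype for most members 3 h after SA and 3 h after MeJA. It was lowest in 14 of 16 members after SA (30.2% of all features with 3 values) and in 14 of 18 after MeJA (31.1%). In 12 of the 16 members measured in all 6 samples it was lowest under both compounds, a pattern held by 16.0% of the 493 such features. Should SA and MeJA have shared untreated FLIP94-508C plants at 3 h, both values would share control RNA. The compounds are therefore not known to be separate observations, and this was not tested. After ACC at 3 h it was lowest in 4 of 19 members (46.1% of all features), and 27 h after MeJA in 9 of 17 (29.6%), which became 6 of 17 (35.4% of all features) with samples scaled to equal spread. The members' median in FLIP94-508C was -0.30 3 h after SA and -0.25 3 h after MeJA, against 0.40 and 0.19 in ICC3996 and 0.13 and 0.23 in Lasseter. Over all features the FLIP94-508C medians were -0.06 and -0.05. The counts were noticed in the data, members with like profiles are not independent, and no test was made of them.

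**Figure D3:**
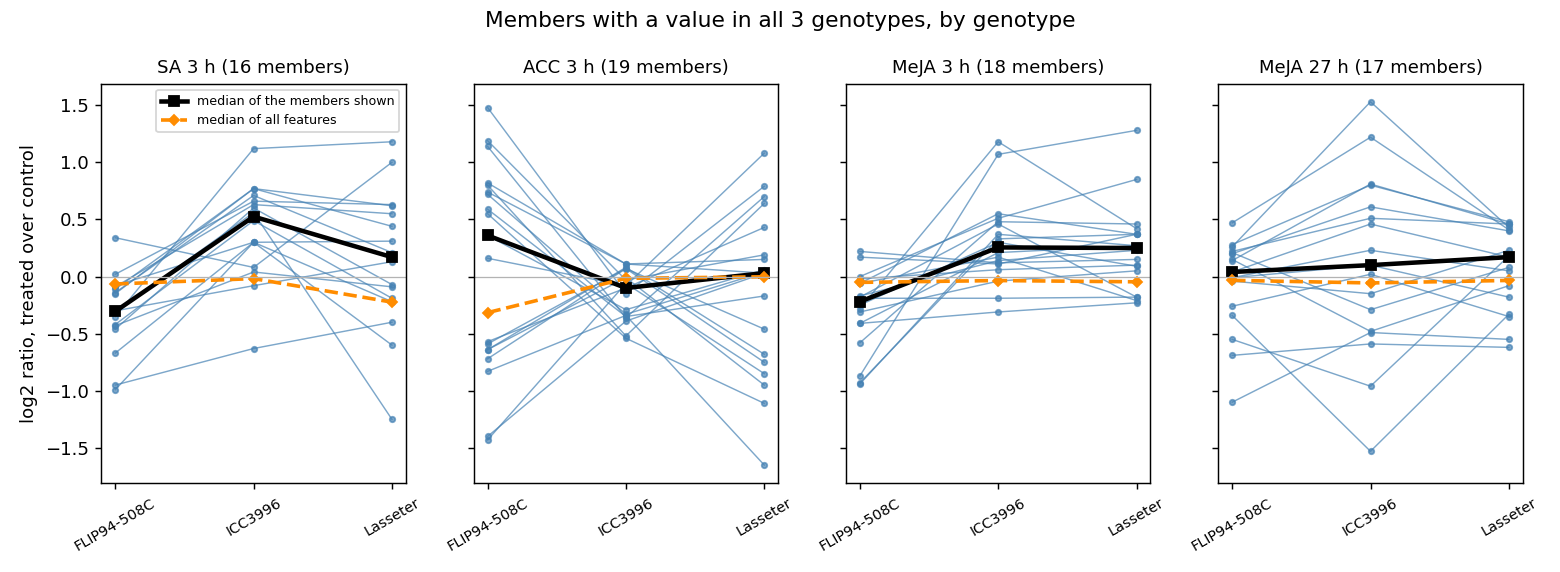
Log2 ratio of the members with 3 values (blue lines, 1 per member) by genotype, 3 h after SA, ACC and MeJA and 27 h after MeJA. Black squares are the members' medians and orange diamonds the medians of all features. FLIP94-508C has the lowest median of the genotypes 3 h after SA and MeJA, and 3 h after ACC its values lie on both sides of control, from -1.43 to 1.48.

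Feature by feature, no difference between genotypes averaged over the 12 samples passed in limma. A difference that turned between compounds would cancel in this average and add to the residual spread, so these contrasts could not show it. FLIP94-508C was lowest in 14 of 16 members 3 h after SA (30.2% of all features) and in 4 of 19 after ACC (46.1%). ICC3996 against Lasseter, FLIP94-508C against Lasseter and ICC3996 against FLIP94-508C each gave 0 calls among 527 features (0.0%), with 7, 6 and 8 features at an unadjusted p under 0.05, of which 0, 1 and 3 were members. These members were U271 (FLIP94-508C minus Lasseter -1.17, SE 0.39, limma adjusted p = 0.979) and, for ICC3996 minus FLIP94-508C, U271 (0.95), CA0550 (0.86) and U017 (0.75), each with a limma adjusted p of 0.993.

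Several members had like profiles over the 12 samples that did not choose them. Of the 120 pairs among the 16 members measured in all 12, 11 had a Pearson r over 0.8 (9.17%), against 2.99% of the 100128 pairs of all 448 such features. The limit of 0.8 was set after seeing the data, and the 12 points share arrays, genotypes and possibly control plants. Linking such pairs gave sets of 5, 5 and 2 members. CA0550, CA0554, U017, U224 and U271 formed the first, with r of 0.97 for CA0550 and U017. U008, U276, U279, U315 and U441 formed the next, and U188 with U286 (r = 0.81) the last. Linking does not require every pair of a set to pass the limit. Within the first set r ran from 0.53 to 0.97, and within the next from 0.32 to 0.90. Between the sets of 5, r ran from -0.69 to 0.27.

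In the set with CA0550 the sign differed between samples. After 3 h of SA all 5 of its members were above control in ICC3996 (0.30 to 1.12) and Lasseter (0.31 to 1.18), and 1 of 5 in FLIP94-508C (-0.35 to 0.02). After 3 h of ACC none was above control in FLIP94-508C (-1.43 to -0.59) or Lasseter (-0.95 to -0.46). All 5 were above control in ICC3996 and Lasseter 3 h after MeJA and none in FLIP94-508C, and 27 h after MeJA none was above it in ICC3996 (-1.53 to -0.48). In the samples that chose them, Lasseter had the highest value under both SA and ACC for CA0550, CA0554 and U017, at 1.60, 1.66 and 1.76 after SA and 1.20, 0.87 and 1.16 after ACC.

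In the set with U008, all 5 members were above control in FLIP94-508C 3 h after ACC (0.72 to 1.14) and none 3 h after SA (-0.46 to -0.09). FLIP94-508C thus had these members on opposite sides of control under SA and ACC at 3 h. At 27 h, among the values that chose the members, all 5 were above control in FLIP94-508C under both (0.74 to 1.74 and 0.62 to 1.53). Their ICC3996 values 27 h after ACC were 0.89 to 1.81, and 27 h after SA 0.09 to 0.72.

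**Figure D4:**
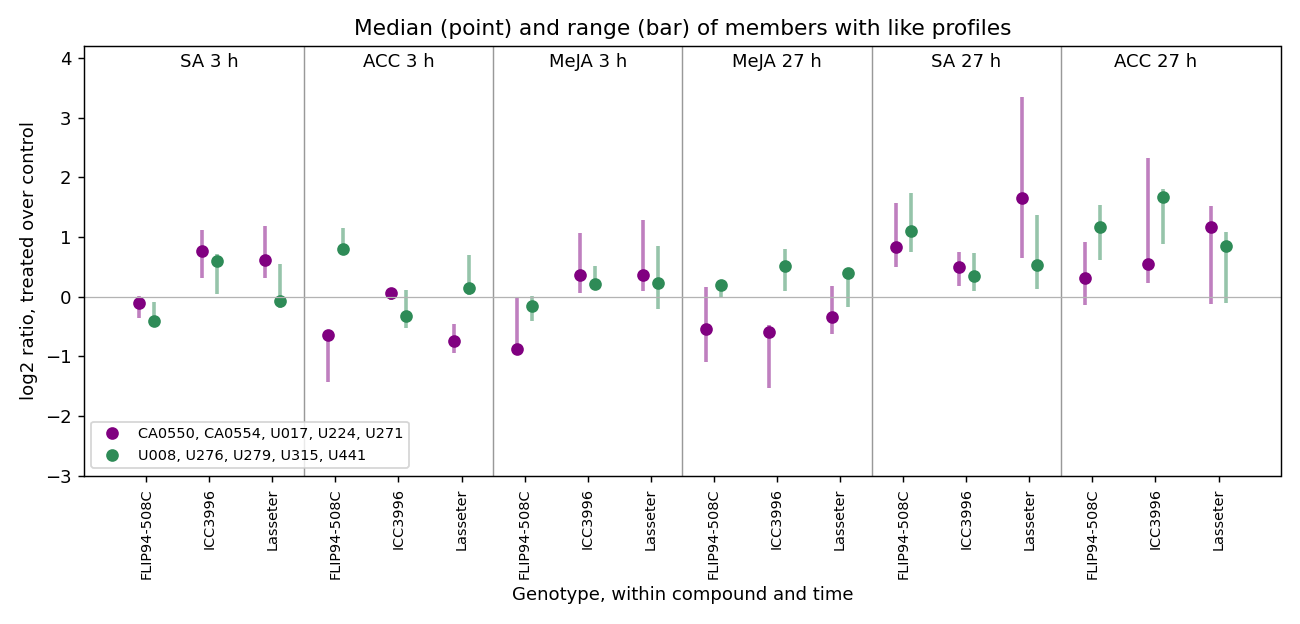
Median (point) and range (bar) of the log2 ratio in each sample for CA0550, CA0554, U017, U224 and U271 (purple) and for U008, U276, U279, U315 and U441 (green). The sets lie on opposite sides of control in FLIP94-508C and Lasseter 3 h after ACC and in ICC3996 27 h after MeJA. Both lie above it 27 h after SA, among the values that chose the members.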

How the data were processed

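RNA was compared on spotted 2-colour cDNA arrays in 18 samples. Per the labels' protocols and the series' design text, the authors subtracted the mean local background, omitted flagged spots, applied Lowess normalisation, formed Cy5/Cy3 ratios, took a shifted log2 and combined duplicate spots, and deposited means of 3 biological replications with dye swaps. The deposited values are these log2 ratios. The size of the shift is not given in these sources. Omitted spots were 10.6% to 25.3% of a sample's features, and no read depth applies. Arrays limit the precision by their number.

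The members, tests and groupings were chosen with earlier results of these data known. Features with at least 2 values in each of the 4 groups that the rule did not use entered a model of limma 3.58.1 (R 4.3.3), with group means and a genotype term (6 residual degrees of freedom). The 6 samples of the rule stayed out of the fit. Group means were tested against 0, two-sided, adjusted over all 527 features at a threshold of 0.05. The genotype pairs the samples across groups, so the term is part of the model. P-values set each estimate against the spread left after the group and genotype terms, moderated over features. Steady differences between genotypes are not part of that spread. Named were members at least 2-fold up under both compounds, members called, the 2 highest and 2 lowest per group, those nearest the threshold and those with the widest genotype range, and all other names were chosen after their values were seen. The tests were tried on simulated data with independent noise, no genotype effect and the same spread in every sample. The samples here differed in spread, so that trial does not show how the tests behave on them. Alternatives were centring, scaling, filters, weights, a variance trend, all 18 samples, no genotype term, the methods' t-test and leaving out samples.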

Additional observations from a re-analysis of the deposited data

Results flagged for a closer look

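The members' median of 6 MeJA samples had 1 sample far from the others: FLIP94-508C at 3 h was at -0.25, against 0.08 to 0.23 in the other samples, a gap of 0.688 of the whole range. Only 4 groups of samples were searched. The limit would mark about 1 in 20 groups of like, independent samples, and these samples differ in genotype and time. The marked sample also belongs to the FLIP94-508C counts given above, so it is not a separate observation.

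U166 differed between SA and ACC at 3 h by -3.31 (limma adjusted p = 0.0188), where its SA values rest on ICC3996 and Lasseter.

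CA0554 lay above control in every genotype 3 h after SA and below it in every genotype 3 h after ACC. The values nearest control were 0.02 in FLIP94-508C after SA and -0.06 in ICC3996 after ACC. The difference of means was 1.22, and limma gave an adjusted p of 0.421. The share of all features with such opposite signs was not counted.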

How the results depend on the processing

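The number of members follows the rule. It was 13 at a threshold of 0.5 and 4 at 1. It was 37 after sample medians were subtracted, with all 20 among them, and 13 after scaling to equal spread. It ran from 13 to 23 when the means were taken over the other 2 genotypes, with 12 to 16 of the 20 kept.

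U166 passed 3 h after SA in 7 of 8 other settings (adjusted p from 0.000171 to 0.0217). The exception was the methods' t-test (adjusted p = 0.624, 0 members). That test had only the 2 SA values of U166 at 3 h and called 0 features in every group tested, so it could not decide. U166 passed in 11 leave-out fits, all with both its SA values. Over values in all 12 samples 0 were called, as U166 has an omitted value, and leave-out fits gave 0 to 1. The difference of U166 between SA and ACC was lost with equal spread (adjusted p = 0.107, 0 members) and a variance trend (adjusted p = 0.24, 0 members), and over complete values 0 were called; leave-out fits gave 0 to 2. For ACC at 3 h sample weights, whose estimation stopped before convergence, gave 3 members (CA0550, U224 and U286, all lower), and leave-out fits 0 to 4, CA0554 (-1.14, adjusted p = 0.0406) being the 1 called without genotype ICC3996. With equal spread 1 member, U121 (1.01, adjusted p = 0.0422), passed 27 h after MeJA. Without the genotype term as a replicate block, U166 was at -3.74 3 h after SA (adjusted p = 0.000171), and no call among members differed.

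Over all features, the 12 calls 3 h after SA became 32 with all 18 samples, 4 with equal spread, 5 over complete values, 19 without a filter, 2 with a variance trend, 0 by the methods' t-test and 0 to 21 in leave-out fits. For ACC at 3 h, 0 became 4, 1, 4, 105 and 3 with all 18 samples, equal spread, no filter, sample weights and no genotype term, and up to 62 without the ICC3996 sample. MeJA gave 1 and 2 at 3 h and 4 and 2 at 27 h with equal spread and weights (27 h, 0 to 2 in leave-out fits), and SA against ACC 0, 6 and 0 with equal spread, weights and a trend, and up to 19 in leave-out fits.

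The members' median 3 h after SA was 0.13 centred, 0.01 scaled and -0.025 to 0.268 without a genotype, 3 h after ACC 0.14, -0.05 and -0.141 to 0.21, and 3 h after MeJA 0.09, 0.09 and -0.066 to 0.2. The median 27 h after MeJA was 0.13 centred, 0.18 scaled, 0.051 over complete members and 0.039 to 0.106 without a genotype. At 27 h after ACC it was 0.84, 0.47, 0.80 and 0.67 to 0.87. FLIP94-508C was lowest in 14 of 16 members 3 h after SA and in 13 of 18 after MeJA under both centring and scaling, and 27 h after MeJA in 9 and 6 of 17. Of the set with CA0550, U224 was no longer linked under either. The set with U008 grew to 8 members after centring, and with equal spread U008 was linked with U441 and U188 with U279. U188 and U286 were both in the set of 8 after centring and were not linked with equal spread.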

Other observations

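The same thresholds were also met by 8 of 105 features with LS identifiers, which the rule leaves out. Of the CA or U features, 16 passed the threshold for SA alone and 71 for ACC alone.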
